A study of Mus musculus with 12 samples.

Results

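Forebrain patterning transcription factors are the DNA-binding proteins that divide the embryonic forebrain into cortex, basal ganglia, septum, hypothalamus and thalamus. Here 35 such genes were followed. They were listed by gene symbol for their known roles, with earlier results of these data known. Each was read from the brightest on average of its probes. They are 35 of 37306 gene names on the array, carry 76 probes, and 16 of them have a single probe. RNA from basal forebrain and cerebral cortex of 6 mice was hybridised in 1 colour to 12 SurePrint G3 mouse expression arrays of Agilent. The double knockouts (DKO, 3 mice) carry ChatCre and PS2-/-, that is, Psen2 is missing from every cell, together with a floxed allele that can be lost only where the Chat promoter drives Cre, in cholinergic neurons. The controls (Con, 3 mice) are labelled Cre- and PS2+/-, so they keep 1 working copy of Psen2, and they carry the same floxed allele without Cre. The mice were 2 months old and are all labelled male. Both regions came from the same animal, and each array held 1 region of 1 mouse.

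In the embryo, Nkx2-1 and the Dlx genes set up the ventral ganglionic eminences, the birthplace of basal forebrain cholinergic neurons and of cortical interneurons. Emx, Lhx2, Tbr1, Fezf2 and Neurod genes build the excitatory cortex, and Otp, Sim1, Hmx2, Hmx3 and several LIM-homeodomain genes build preoptic area and hypothalamus. Many of these factors stay on in the mature descendants of the cells they specified, so their RNA marks which territories a dissected piece of adult tissue holds.

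Levels are log2 processed intensity minus the 75th percentile of the array, so a level of 0 is that percentile. They can be compared between arrays for 1 gene, but not between genes. Psen2, the gene deleted throughout, averaged -1.52 ± 0.31 in DKO and 0.35 ± 0.09 in Con basal forebrain, and -1.65 ± 0.06 in DKO and 0.46 ± 0.04 in Con cortex (SD, n = 3 each). DKO mice 1 and 3 went against their male label. On their 4 arrays Xist, expressed from the inactive X of females, lay between -2.32 and -1.53, and the Y-linked gene Ddx3y was at -8.47 or below, while the other 4 mice had Ddx3y at -1.55 or above and Xist not well above background. Slide 1 carried the 6 basal forebrain arrays together with the cortex of DKO mice 1 and 2. Slide 2 carried the cortex of DKO mouse 3 and of all Con mice. Marker lists, chosen with earlier results of these data known, went with the dissection labels and are no independent test of them. In both genotypes 9 of 9 striatal and 5 of 5 cholinergic genes passed as higher in basal forebrain and 8 of 8 cortical excitatory genes as lower. Of all genes 19.3% passed as higher and 20.6% as lower in DKO mice, and 18.5% and 30.5% in Con mice. Over both regions 6 of 6 erythroid and 3 of 4 B cell genes passed as higher in DKO mice. Of all genes 0.156% passed there in either direction.

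The regional contrast of the factors rests on single 60-base probes, so the first 30 bases of 6 of them are given 5′ to 3′ as the array design lists them. These show 1 ventral, 3 hypothalamic and 2 cortical members described below with their values on each array, and are not a ranking by size. They are the ventral factor Nkx2-1, the hypothalamic factors Otp, Hmx2 and Hmx3, and the cortical factors Fezf2 and Neurod6. The design places these probes, in mm9, at chr12:57633119-57633178 (minus strand), chr13:95654757-95654816 (plus), chr7:138699734-138699793 (plus), chr7:138688330-138688389 (plus), chr14:13175057-13175116 (minus) and chr6:55628006-55628065 (minus). Whether a probe lies in coding or untranslated exon was not determined here.
Nkx2-1: agttggactaaatgcctagtttttagtaac
Otp: atctacaaccctgcaactttgtacagagaa
Hmx2: gcacctgctttctacacaaaaccaaacaac
Hmx3: atttgaggcgcttctcctcttatttttggt
Fezf2: tttgcagaaactttgacttaaagagacatg
Neurod6: agggacaaaaataagtgtattcagttggta

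Basal forebrain was set against cortex within each genotype. The direction of the calls followed territory: members called higher in basal forebrain were ventral, hypothalamic, thalamic, septal or striatal factors, and those called lower were pallial, in either genotype. Lhx6, Dlx1, Zic2, Zic5, Foxp1 and Cux1 passed in neither genotype, and Otp passed in DKO mice but not in Con mice. In DKO mice 18 of 33 members tested passed as higher, 9 as lower and 6 did not pass, at a limma adjusted p under 0.05. In Con mice 18 of 34 were higher, 9 lower and 7 did not pass. Of all genes, 39.9% passed in DKO mice (19.3% higher, 20.6% lower) and 49% in Con mice (18.5% higher, 30.5% lower). The members were selected for regional roles, so nothing is read from a share above these. A member entered only if the scanner called it well above background on each of the 3 arrays of a group compared. For 29 members that held on every array of both regions in either genotype. Among these, 14 were higher, 9 lower and 6 not passed in DKO mice, and 13, 9 and 7 in Con mice. The rest entered through basal forebrain alone and had to differ, namely Hmx2, Hmx3, Lhx5 and Gbx2 in both genotypes and Six6 in Con mice. Sim1 was tested in neither genotype and Six6 not in DKO mice. The tissue is bulk, so fewer cells of a type and less RNA per cell cannot be told apart.

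**Figure D1:**
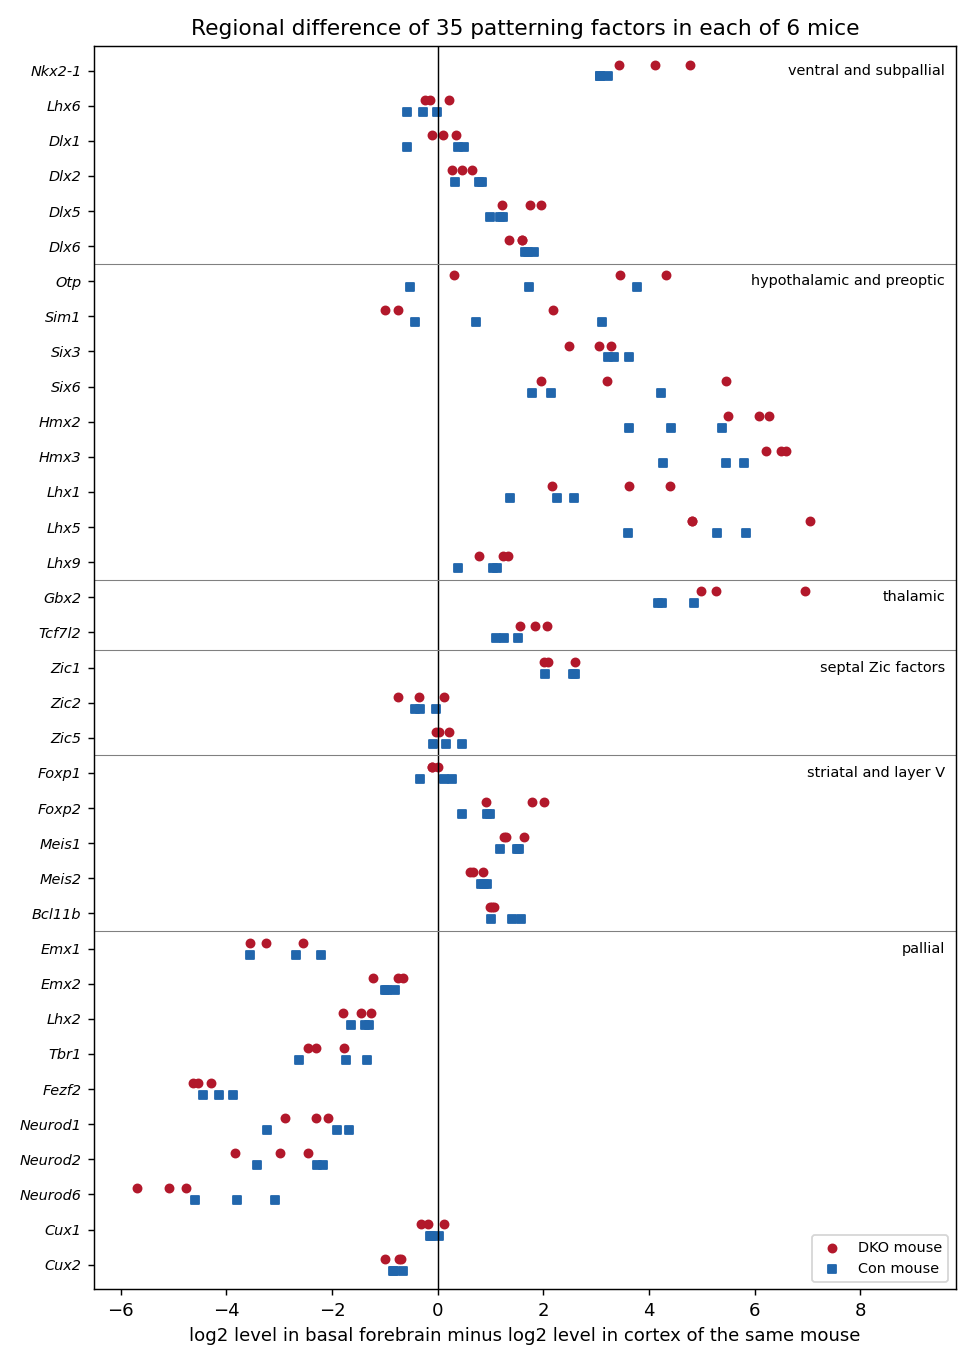
Basal forebrain level minus cortex level of the same mouse (x axis, log2) for each of the 35 factors (rows, grouped by territory), with 1 point per mouse: circles are DKO mice and squares Con mice. All 6 mice lie right of 0 for Nkx2-1, Six3, Zic1 and Meis1, which were well above background on every array. Left of 0 lie all 6 mice for 9 of 10 pallial factors, while Lhx6, Dlx1, Otp, Sim1, Zic2, Zic5, Foxp1 and Cux1 straddle 0. Members not well above background in cortex are drawn at their measured value.

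Among the 6 ventral and subpallial factors 4 were higher in basal forebrain in both genotypes and 2 did not pass. Nkx2-1, the homeodomain factor that specifies the medial ganglionic eminence, had levels of -0.62, -0.81 and -0.35 in basal forebrain and -5.40, -4.92 and -3.77 in cortex of DKO mice 1, 2 and 3. Con mice 1, 2 and 3 had -0.97, -0.85 and -1.14 in basal forebrain and -4.05, -3.93 and -4.37 in cortex. No cortex array came near any basal forebrain array, and limma gave a log2 difference of 4.10 ± 0.32 (SE) in DKO mice (adjusted p = 2.03e-06) and 3.13 ± 0.32 in Con mice (1.70e-05). Dlx5 and Dlx6, homeodomain genes of GABAergic progenitors whose probes start 12971 bp apart on chromosome 6, differed by 1.64 and 1.51 in DKO mice and by 1.14 and 1.73 in Con mice. In the other linked pair, Dlx2 passed at 0.46 in DKO and 0.65 in Con mice, while its neighbour Dlx1, with a probe start 10113 bp away on chromosome 2, stood at 0.12 and 0.10 and did not pass. Whether the pair differed from each other was not tested. Without Con mouse 2, Dlx1 passed in Con mice too, at 0.44 (limma adjusted p = 0.0492). The Dlx2 call in DKO mice was lost without DKO mouse 1, at 0.36 (limma adjusted p = 0.140), and without DKO mouse 3, at 0.45 (0.0935). With mouse 2 as the only DKO mouse the difference was 0.26 (limma adjusted p = 0.538), in a fit whose spread comes from the Con arrays alone and is assumed to hold for that mouse.

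Lhx6, a LIM-homeodomain gene that acts below Nkx2-1 and stays on in cortical interneurons born in the medial ganglionic eminence, was the 1 ventral factor with the opposite sign. It read 3.80, 4.17 and 4.03 in basal forebrain and 3.94, 3.97 and 4.26 in cortex of DKO mice, against 3.63, 4.25 and 3.96 in basal forebrain and 4.21, 4.26 and 4.25 in cortex of Con mice. The regions overlapped in both genotypes, with log2 differences of -0.06 ± 0.14 (limma adjusted p = 0.779) and -0.29 ± 0.14 (0.106). So Nkx2-1 and Lhx6, which mark the same embryonic source, had different regional profiles here: Nkx2-1 was far higher in basal forebrain, and the levels of Lhx6 overlapped between regions. After scaling arrays by their median in place of the 75th percentile, Lhx6 passed as lower in basal forebrain, at -0.34 in DKO mice (limma adjusted p = 0.0491) and -0.41 in Con mice (0.0254). That scaling moved the median difference of all genes to -0.32 in DKO and -0.21 in Con mice. The Lhx6 calls include this shift, so they do not show Lhx6 as lower than genes in general.

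Of the hypothalamic and preoptic factors, Otp, Six3, Lhx1 and Lhx9 were well above background on every array of both regions: 4 of these 4 passed as higher in basal forebrain in DKO mice and 3 of 4 in Con mice. Hmx2, Hmx3 and Lhx5, and Six6 in Con mice, entered through basal forebrain alone, so their passing adds no count. Hmx3, a homeodomain gene of the hypothalamus and inner ear, read -0.96, -1.85 and -0.61 in basal forebrain of DKO mice and -1.64, -3.22 and -1.49 in that of Con mice. In cortex it was not well above background on any DKO array and on 2 of 3 Con arrays. The fitted log2 difference in Con mice was 5.17 ± 0.64 (limma adjusted p = 7.01e-05), a size that is not exact. In DKO mice the contrast was therefore at least 37.7-fold (limma adjusted p = 1.28e-05). Such a bound sets the mean of the bright group against, per array, the dim probe's own signal or the lowest signal among probes well above background, whichever is higher. Its neighbour Hmx2, whose probe starts 11404 bp away on chromosome 7, moved with it. Hmx2 read -2.81, -3.19 and -2.20 in basal forebrain of DKO mice and -3.31, -4.40 and -3.31 in that of Con mice, was not well above background on any cortex array, and was at least 12.5-fold higher in basal forebrain in DKO mice (limma adjusted p = 4.06e-07) and at least 6.39-fold in Con mice (3.80e-06).

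Six3, a homeodomain gene of eye field and ventral forebrain that striatal neurons also express, differed by 2.94 ± 0.20 in DKO and 3.39 ± 0.20 in Con mice, with 6 of 6 mice higher in basal forebrain. Its relative Six6 was well above background on 2 of 3 DKO and 3 of 3 Con basal forebrain arrays and on none in cortex, a contrast of at least 2.37-fold in DKO mice, untested, and at least 1.49-fold in Con mice (limma adjusted p = 0.00936). The Six6 call in Con mice was lost without Con mouse 1 (adjusted p = 0.106 in limma) and with normexp background correction (0.433). The LIM-homeodomain genes Lhx1 and Lhx9 differed by 3.39 and 1.12 in DKO mice and by 2.07 and 0.85 in Con mice, all passing. Lhx5, of the same family, had fitted differences of 5.56 in DKO and 4.91 in Con mice, but its cortex probe was well above background on 2 of 3 DKO and 1 of 3 Con arrays only, so these sizes are not exact. In Con mice the Lhx1 and Lhx9 calls hung on single animals: without Con mouse 1 the limma adjusted p was 0.0555 for Lhx1 and 0.0605 for Lhx9, and without Con mouse 2 it was 0.0537 for Lhx9.

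Otp, which with Sim1 specifies the neuroendocrine neurons of the hypothalamus, stood apart by its spread and is singled out here after its values were seen. It read 0.56, -2.71 and -0.38 in basal forebrain and -3.77, -3.02 and -3.84 in cortex of DKO mice, against 0.36, -4.07 and -1.62 in basal forebrain and -3.42, -3.55 and -3.35 in cortex of Con mice. In DKO mouse 2 and Con mouse 2 the basal forebrain was close to or below cortex, and in the other 4 mice it was far above. The difference was 2.70 ± 0.95 in DKO mice (limma adjusted p = 0.0399) and 1.66 ± 0.95 in Con mice (0.161). The call in DKO mice was lost in 12 of its 18 alternatives, among them leaving out DKO mouse 1 (difference 1.88) or DKO mouse 3 (2.32), and with mouse 2 alone it was 0.31. In Con mice the difference passed only without Con mouse 2, at 2.76 (limma adjusted p = 0.0380). Sim1, a bHLH-PAS factor, was well above background on 2 DKO and 1 Con basal forebrain arrays and on 1 cortex array, that of DKO mouse 1.

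Of the thalamic factors, Tcf7l2 was well above background on every array and passed as higher in basal forebrain in both genotypes. Gbx2 entered through basal forebrain alone, so its passing adds no count. Gbx2, a homeodomain gene of the embryonic thalamus, read -1.76, -1.78 and -1.53 in basal forebrain of DKO mice and -2.04, -1.76 and -1.90 in that of Con mice. In cortex it was well above background on none of 3 DKO and 2 of 3 Con arrays. It was at least 25.7-fold higher in DKO basal forebrain (limma adjusted p = 1.24e-06). The fitted Con difference was 4.42 ± 0.42 (limma adjusted p = 9.58e-06), a size that is not exact. Tcf7l2, the Wnt pathway factor that thalamic neurons keep, read 1.53, 1.82 and 1.56 in basal forebrain and -0.32, -0.25 and 0.00 in cortex of DKO mice, against 1.50, 1.24 and 1.34 in basal forebrain and -0.01, 0.14 and 0.08 in cortex of Con mice. The regions did not overlap, and the differences were 1.83 ± 0.11 and 1.29 ± 0.11. Of 6 thalamus marker genes only 1 in DKO and 2 in Con mice passed as higher, and 1 in each passed as lower.

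Of the 3 Zic zinc finger genes of septum and midline only Zic1 passed. It read 3.57, 3.54 and 3.60 in basal forebrain and 1.47, 1.53 and 1.00 in cortex of DKO mice, against 3.85, 3.60 and 3.31 in basal forebrain and 1.29, 1.01 and 1.28 in cortex of Con mice. The differences were 2.23 ± 0.15 (limma adjusted p = 7.20e-07) and 2.39 ± 0.15 (4.74e-07), and every basal forebrain array lay above every cortex array. Zic2 ran the other way by its brightest probe without passing, with -2.32, -1.59 and -2.43 in basal forebrain and -1.56, -1.71 and -2.07 in cortex of DKO mice, against -1.64, -2.002 and -1.83 in basal forebrain and -1.60, -1.67 and -1.40 in cortex of Con mice. Its differences were -0.34 ± 0.21 and -0.26 ± 0.21. The other Zic2 probe, also well above background on all 12 arrays, gave 0.33 in DKO and 0.06 in Con mice, so the sign depends on the probe. Zic5, divergent neighbour of Zic2 on chromosome 14 with a probe start 23277 bp away, stood at 0.07 in DKO and 0.18 in Con mice.

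Among the striatal and layer V factors 4 of 5 were higher in basal forebrain in both genotypes. Meis1, a TALE homeodomain partner of HOX and PBX proteins, read 1.17, 0.92 and 1.06 in basal forebrain and -0.46, -0.36 and -0.19 in cortex of DKO mice, against 1.13, 0.93 and 1.11 in basal forebrain and -0.42, -0.26 and -0.40 in cortex of Con mice. These are differences of 1.39 ± 0.10 and 1.41 ± 0.10 (limma adjusted p = 9.74e-07 and 1.01e-06), with little spread within a region. Bcl11b (CTIP2), which striatal projection neurons share with layer V corticospinal neurons, read 2.72, 2.68 and 2.57 in basal forebrain and 1.69, 1.69 and 1.50 in cortex of DKO mice, against 2.36, 2.87 and 2.96 in basal forebrain and 1.36, 1.47 and 1.38 in cortex of Con mice. The contrast was 1.03 in DKO and 1.33 in Con mice, and with mouse 2 as the only DKO mouse it was about as large, at 0.98 (limma adjusted p = 0.0502). Foxp2, a forkhead gene of striatum and deep cortical layers, differed by 1.57 ± 0.27 in DKO and 0.80 ± 0.27 in Con mice. The Con call was lost whichever Con mouse was left out, with limma adjusted p values of 0.168, 0.115 and 0.0507 without mice 1, 2 and 3. Foxp1, its paralog, did not differ beyond its spread, at -0.07 and 0.02.

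The pallial factors were the mirror image: 9 of 10 were lower in basal forebrain in both genotypes. Fezf2, the zinc finger gene that directs layer V neurons to subcerebral targets, read -3.74, -3.39 and -4.05 in basal forebrain and 0.90, 0.90 and 0.48 in cortex of DKO mice, against -3.53, -3.81 and -3.17 in basal forebrain and 0.60, 0.64 and 0.71 in cortex of Con mice. It was 22.4-fold lower in DKO basal forebrain (limma adjusted p = 2.65e-08) and 17.8-fold lower in Con (5.96e-08), the smallest p of all members in both. Neurod6, a bHLH gene of cortical pyramidal neurons, read -3.14, -2.99 and -4.06 in basal forebrain and 1.94, 1.78 and 1.63 in cortex of DKO mice, against -1.94, -2.82 and -1.32 in basal forebrain and 1.86, 1.77 and 1.77 in cortex of Con mice. Its differences were -5.18 ± 0.33 and -3.82 ± 0.33 (limma adjusted p = 4.54e-07 and 4.73e-06). Cortex arrays agreed closely, while basal forebrain arrays varied. The bHLH genes Neurod2 and Neurod1 differed by -3.10 and -2.42 in DKO and by -2.63 and -2.27 in Con mice, and Tbr1, the T-box gene of layer VI, by -2.18 and -1.89. The progenitor factors gave -3.11 and -2.81 for Emx1, -1.50 and -1.44 for Lhx2 and -0.88 and -0.92 for Emx2 (DKO and Con). Cux2, a homeodomain gene of upper cortical layers, differed by -0.81 and -0.77. Its paralog Cux1 did not pass, at -0.12 and -0.08.

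The slide bears on these contrasts. In Con mice all basal forebrain arrays were on slide 1 and all cortex arrays on slide 2, so region and slide cannot be told apart within Con mice. In DKO mice slide 1 held both regions. With slide as a block in the fit of all arrays, Dlx2, Six6 and Lhx9 no longer passed in Con mice (limma adjusted p = 0.109, 0.196 and 0.203) and Otp in DKO mice (0.0990). The block takes its slide effect only from DKO cortex, mouse 3 against mice 1 and 2. It cannot tell slide from these mice, so it does not correct the Con contrasts. With the block Dlx2, Lhx9 and Otp stayed near the values above, at 0.72 and 0.78 in Con mice and 2.55 in DKO mice. Six6 was fitted at 3.05 in Con mice, a size that is not exact because its cortex probe was near background. Some other Con differences moved more with the block. Nkx2-1 went from 3.13 to 4.51, Lhx1 from 2.07 to 4.08 and Foxp2 from 0.80 to 1.98, so the size of such Con contrasts depends on the slide term. Slide 1 alone (3 basal forebrain and 2 cortex arrays) was an alternative chosen after the data were seen. Of the members called in DKO mice, only Otp and Dlx2 no longer passed there (limma adjusted p = 0.165 and 0.0742). Their differences of 2.55 and 0.48 were close to the 2.70 and 0.46 of all DKO arrays. Hmx2, Hmx3, Lhx5 and Gbx2 again entered through basal forebrain alone, so their passing adds nothing. Fezf2 then differed by -4.62, Neurod6 by -5.26 and Nkx2-1 by 4.56. With DKO mouse 2 as the only DKO mouse the difference was 0.31 for Otp, 0.26 for Dlx2 and 0.98 for Bcl11b. That fit has 1 DKO array per region and takes its whole spread from the Con arrays, so it says little about DKO mice.

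The probes of several members gave regional differences of unlike size or sign, which touches the values above. Besides Zic2, 5 members whose probes disagreed are described in more detail, chosen after their values were seen. The other Bcl11b probe gave 0.69 in DKO and 0.47 in Con mice, in the same direction as the one read. The dim second probe of Nkx2-1, well above background on 10 of 12 arrays, gave 1.37 in DKO and -0.50 in Con mice. Meis2, a relative of Meis1, passed at 0.71 in DKO and 0.88 in Con mice by its brightest probe, while 2 probes of another transcript model upstream gave 2.83 and 3.05 in DKO and 2.44 and 2.43 in Con mice. Foxp1 was level by its brightest, most 3′ probe, while 3 upstream probes well above background on all arrays gave 0.60 to 1.70 in DKO and 0.49 to 1.11 in Con mice. For Tcf7l2 the most 5′ probe gave 0.10 and -0.29, and the other 3 gave 1.26 to 1.83 in DKO and 1.06 to 1.40 in Con mice.

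Cux1 probes gave both signs. The one that was read, at chr5:136724181-136724240, gave -0.12 in DKO and -0.08 in Con mice. A pair of probes designed on NM_001291233 gave -0.34 and -0.39 in DKO and -0.53 and -0.57 in Con mice, in the same direction as Cux2. A further one, at chr5:136838607-136838666, gave 1.74 in DKO and 1.61 in Con mice. As background, the Cux1 locus also makes CASP, a Golgi protein without the homeodomain, through alternative 3′ exons. Which product each probe reads is not given in the files. For Cux2 both 3′ probes were negative, at -0.81 and -0.67 in DKO and -0.77 and -0.50 in Con mice, and the third was 0.85 and 0.57. With the mean of all probes Cux2 therefore no longer passed, at -0.21 in DKO mice (limma adjusted p = 0.274) and -0.23 in Con mice (0.196). The first 30 bases of 3 minus-strand Cux1 probes are shown because they give 3 different answers for 1 gene; the NM_001291233 probe shown lies at chr5:136744240-136744299.
Cux1, probe read: tccatgatttgagttctgcttgcttcttta
Cux1, NM_001291233: tagaccaactgctactgatctgtcagcgta
Cux1, ENSMUST00000176501: aatgtgggaagaaaaaggagacgacatcat

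**Figure D2:**
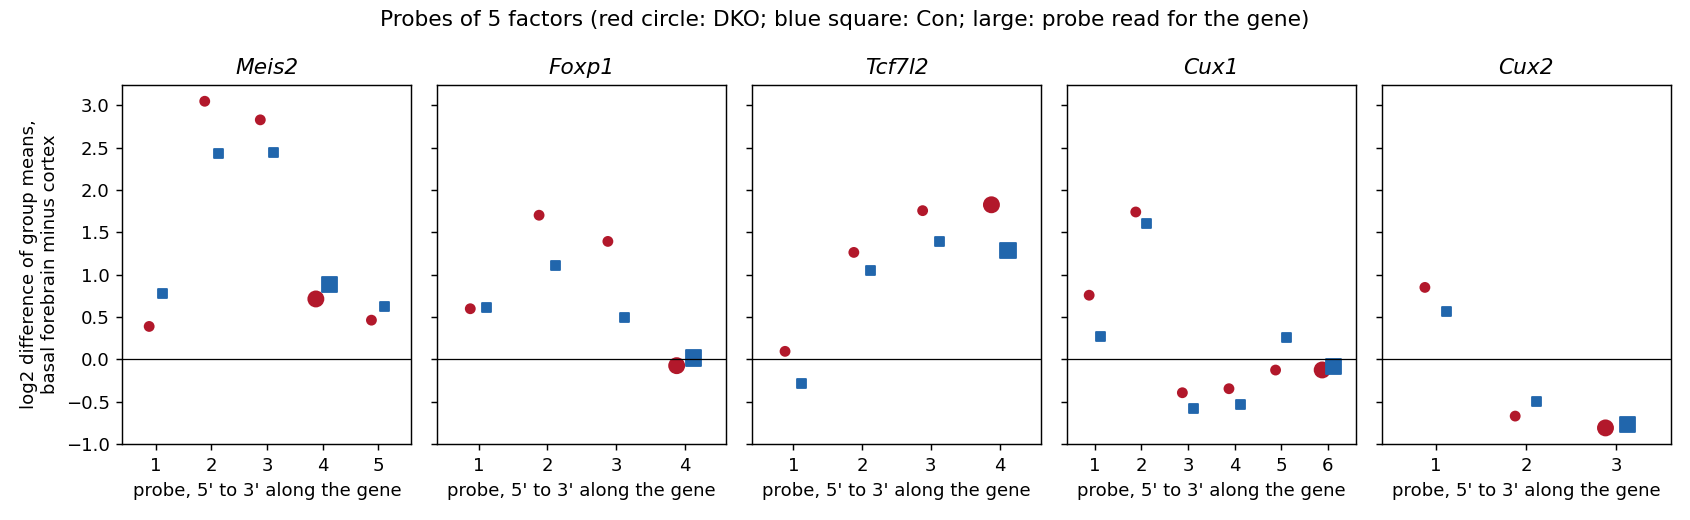
Difference of group means, basal forebrain minus cortex (y axis, log2), for each probe of 5 factors that all 12 arrays called well above background, ordered 5′ to 3′ along the gene (x axis): circles are DKO mice, squares Con mice, and large symbols the probe read. The Meis2 probes range from 0.39 to 3.05 in DKO mice, and those of Cux1 and Cux2 lie on both sides of 0.

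The second pattern was between mice within basal forebrain. Over the 6 basal forebrain arrays the lowest and highest level of a member lay a median of 0.69 apart (33 members well above background on all 6), against 0.43 for all genes. In cortex it was 0.38 (29 members), against 0.44. Among factors well above background on all 6 arrays, Otp spanned the most, 24.8-fold, followed by the pallial Neurod6 at 6.70-fold and the hypothalamic Hmx3 and Hmx2 at 6.14-fold and 4.60-fold. Lhx1, Lhx5, Lhx9 and Six3, of the same hypothalamic group, spanned 2.13-fold, 2.08-fold, 1.53-fold and 1.42-fold. Six6 and Sim1 were not well above background on every array, so their span is not exact. DKO mouse 1 was highest for 5 of the 9 hypothalamic factors and DKO mouse 3 for 3, while Con mouse 2 was lowest for 5 of 9. Six3 went the other way, highest in Con mouse 2.

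Averaged over the 9 factors, the deviation from each gene's mean over the 6 arrays was 0.85, -0.56 and 0.54 in DKO mice 1, 2 and 3, and 0.48, -1.06 and -0.24 in Con mice 1, 2 and 3. The 11 hypothalamic peptide genes averaged 0.66, -0.32 and 0.39 in DKO mice and 0.41, -0.96 and -0.17 in Con mice. Con mouse 2 was lowest for 5 of these 11 and DKO mouse 2 for 0, so the means do not hold for each gene. Ependyma markers, 4 genes of the ciliated cells that line the ventricles, moved alike, at 0.77, -0.32 and 0.46 in DKO mice and 0.40, -1.65 and 0.33 in Con mice, with Con mouse 2 lowest for 4 of 4. Their part in the hypothalamic values was not tested. Oxytocin (Oxt), made by neurons that need Otp and Sim1, read 5.99, 3.32 and 5.48 in basal forebrain of DKO mice and 5.26, 1.36 and 4.37 in that of Con mice. High and low mice occurred in both genotypes. DKO mice 1 and 3, the high ones among DKO mice, are also those with Xist RNA. Con mice, none with Xist well above background, varied too. The part of this order, and of sex, in the regional and genotype values was not tested.

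Pallial factors varied in another order. Con mouse 3 was highest for 8 of 10 and DKO mouse 3 lowest for 6 of 10, and the mean deviation was 0.17, -0.13 and -0.44 in DKO and 0.24, -0.30 and 0.47 in Con mice. Neurod2 spanned 3.02-fold. The 8 cortical excitatory marker genes gave 0.15, -0.16 and -0.40 in DKO and 0.28, -0.35 and 0.48 in Con mice, in the same order of mice as the factors. The 9 striatal markers gave -0.12, 0.09 and -0.02 in DKO and -0.34, 0.33 and 0.06 in Con mice: Con mouse 2, low for hypothalamic genes, was highest for all 9, and Con mouse 1 lowest for all 9. All these points come from the same 6 arrays, so lists that share an array share its tissue piece and its processing.

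**Figure D3:**
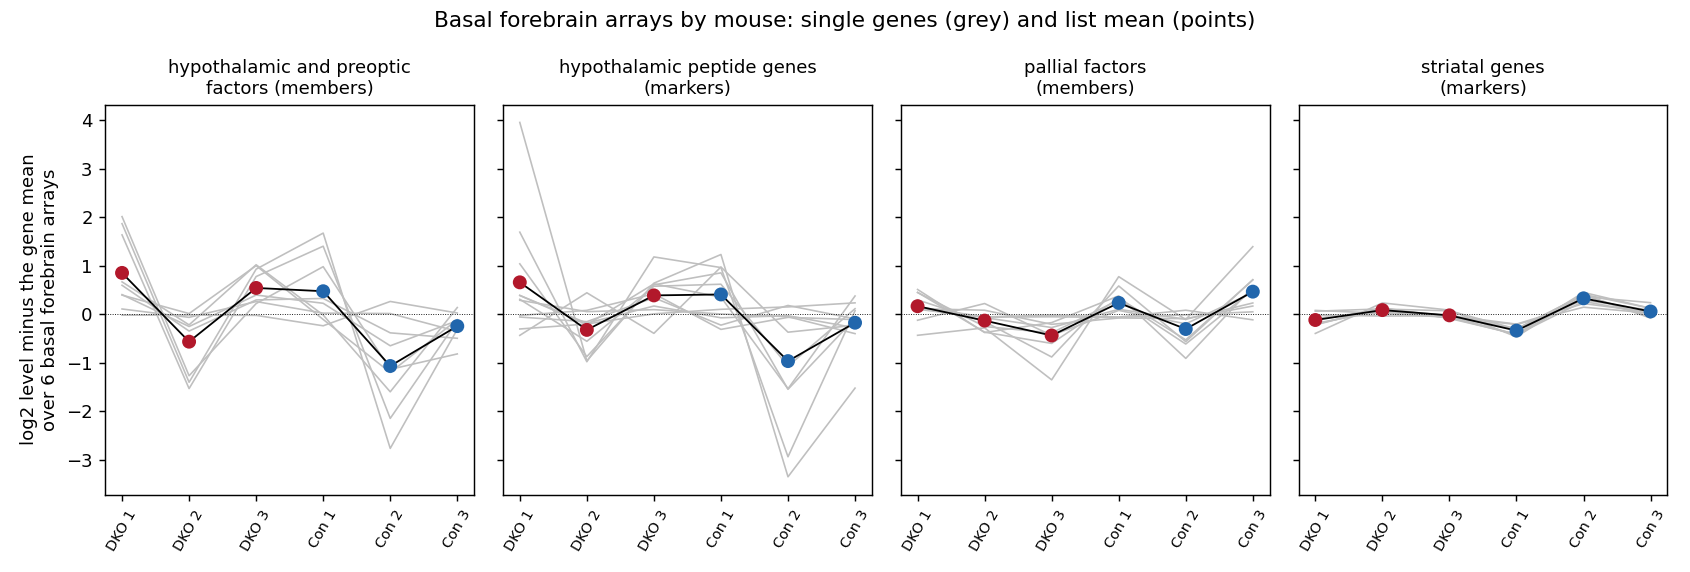
Log2 level minus the gene's mean over the 6 basal forebrain arrays (y axis) by mouse (x axis) for 2 member groups and 2 marker lists: grey lines are single genes, points the list mean, red DKO and blue Con. The list means of hypothalamic factors and peptide genes are low in DKO mouse 2 (-0.56 and -0.32) and Con mouse 2 (-1.06 and -0.96). Single genes differ: Con mouse 2 was lowest for 5 of 9 factors and 5 of 11 peptide genes, and DKO mouse 2 for 1 and 0.

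DKO was compared with Con in each region. DKO mice 1 and 3 had Xist and no Con mouse did, so sex by these genes goes partly with genotype. Only DKO mouse 2 matched the Con mice in Xist and Ddx3y. Fits with it as the only DKO mouse compare like sexes, but with 1 DKO array per region. The part of sex in the values below was not tested. No member passed in basal forebrain (0 of 34 tested, limma adjusted p of 0.973 or more), where 0.0306% of all genes did. At an unadjusted p under 0.05 there were 4 members, and in 4 the genotypes did not overlap, against 4.39% and 9.95% of all genes. These 4 were the same genes: Neurod6, Nkx2-1, Tcf7l2 and Hmx2. Neurod6 averaged -3.40 ± 0.58 in DKO and -2.02 ± 0.76 in Con basal forebrain (SD, n = 3 each), a difference of -1.37 ± 0.43 (SE). The mean of the cortical excitatory markers above was likewise highest in Con mouse 3 and lowest in DKO mouse 3. Single markers differed: of 8, 4 were highest in Con mouse 3, 4 were lowest in DKO mouse 3 and 4 in Con mouse 2. Their part in the Neurod6 difference was not tested. Nkx2-1 averaged -0.59 ± 0.24 in DKO and -0.99 ± 0.14 in Con mice, a difference of 0.40 ± 0.15. Hmx2 averaged -2.73 ± 0.50 and -3.67 ± 0.63 (0.94 ± 0.37), and Tcf7l2 1.64 ± 0.16 and 1.36 ± 0.13 (0.27 ± 0.11), DKO first. The median difference was 0.00 over the members tested and 0.00 over all genes. Neurod6 was lower in DKO under every alternative run, between -1.77 and -0.97, and passed in none.

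In cortex no member passed either (0 of 29 tested, limma adjusted p of 0.261 or more, against 0.0116% of all genes). Hmx2, Hmx3, Six6, Lhx5, Gbx2 and Sim1 were too dim to test there. Bcl11b and Tcf7l2 were under 0.05 before adjustment, 2 of 29, against 18.9% of all genes. In Bcl11b and Tbr1 the genotypes did not overlap, against 22.4%. Bcl11b averaged 1.63 ± 0.11 in DKO and 1.40 ± 0.06 in Con cortex, a difference of 0.23 ± 0.08 (limma adjusted p = 0.261). Zic2, with the smallest p of the Zic genes, differed by -0.22 ± 0.15 (0.411 in limma, adjusted). Over both regions, with the 2 arrays of a mouse averaged, 0 of 34 passed, with limma adjusted p of 0.416 or more, against 0.156% of all genes. The smallest was that of Neurod6, at -0.69 ± 0.22.

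**Figure D4:**
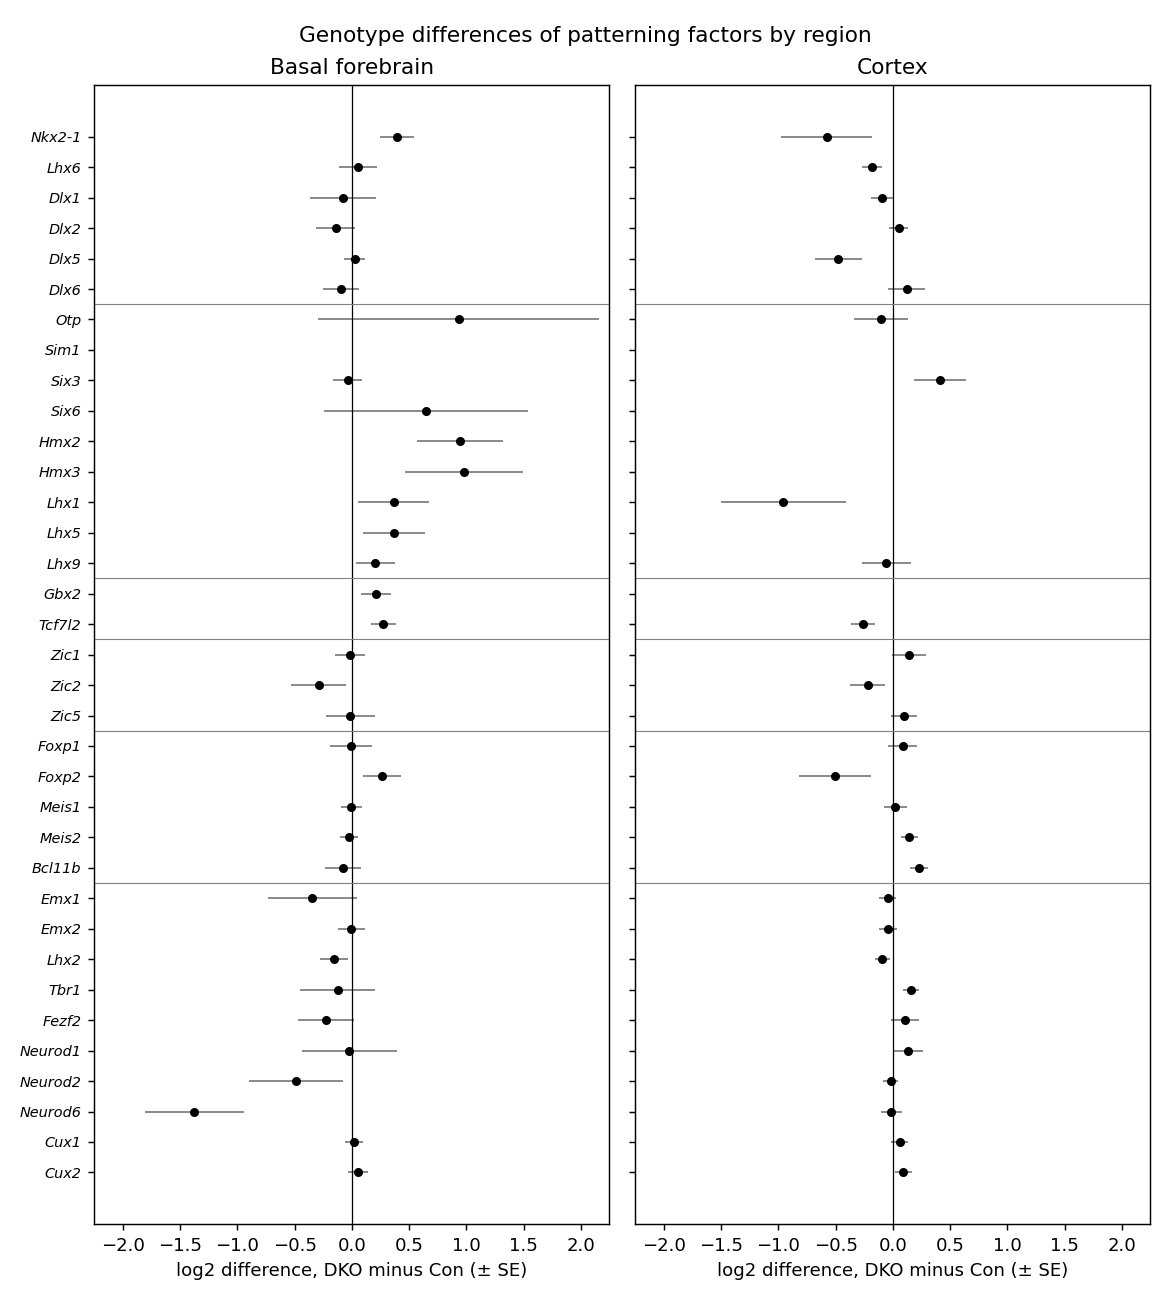
Difference between DKO and Con mice (x axis, log2, ± SE from the fit, n = 3 per genotype) for each factor (rows) in basal forebrain (left) and cortex (right). Neurod6 in basal forebrain lies at -1.37 and Lhx1 in cortex at -0.96, and no factor passed in either region. Untested factors have no point.

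The cortex result hung on DKO mouse 3, the 1 DKO cortex array on slide 2. Nkx2-1 read -5.40 and -4.92 in DKO mice 1 and 2 on slide 1, and -3.77 in DKO mouse 3 on slide 2, against -4.05, -3.93 and -4.37 in Con mice on slide 2. Dlx5 read -1.71 and -1.63 on slide 1 and -0.91 on slide 2 in DKO mice, against -1.01, -0.96 and -0.86 in Con mice. Lhx1 read -6.15 and -6.31 on slide 1 and -4.22 on slide 2 in DKO mice, against -4.60, -4.98 and -4.22 in Con mice. In each the DKO array on the same slide as the controls lay at or above the Con mean.

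Without DKO mouse 3, genotype and slide cannot be told apart in cortex. Then 11 of 29 members passed (37.9%), as did 37.4% of all genes. Nkx2-1 (-1.04), Lhx1 (-1.63), Dlx5 (-0.73), Foxp2 (-0.90), Tcf7l2 (-0.35), Lhx6 (-0.28) and Lhx2 (-0.14) were lower in DKO, and Zic1 (0.31), Bcl11b (0.29), Neurod1 (0.28) and Fezf2 (0.25) higher. On slide 2 alone, DKO mouse 3 minus the Con mean gave 0.34 for Nkx2-1, 0.38 for Lhx1, 0.03 for Dlx5 and 0.28 for Foxp2, with no test. It gave -0.07 for Tcf7l2, 0.02 for Lhx6 and 0.01 for Lhx2. For the members called higher it gave -0.19 for Zic1, 0.10 for Bcl11b, -0.15 for Neurod1 and -0.17 for Fezf2. Tcf7l2 and Bcl11b thus kept the sign of their call. With slide as a block the genotype difference is again that of DKO mouse 3 from the Con mean, so this fit repeats the slide 2 values. In it 0 members passed, and 0.0155% of all genes did, but 1 DKO array carries the difference, so nothing is concluded from these counts. With DKO mouse 2 as the only DKO mouse, also without a DKO array on slide 2, 6 of 30 passed (20%), against 29.4% of all genes, in a fit of 1 DKO array whose spread comes from the 3 Con arrays alone.

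**Figure D5:**
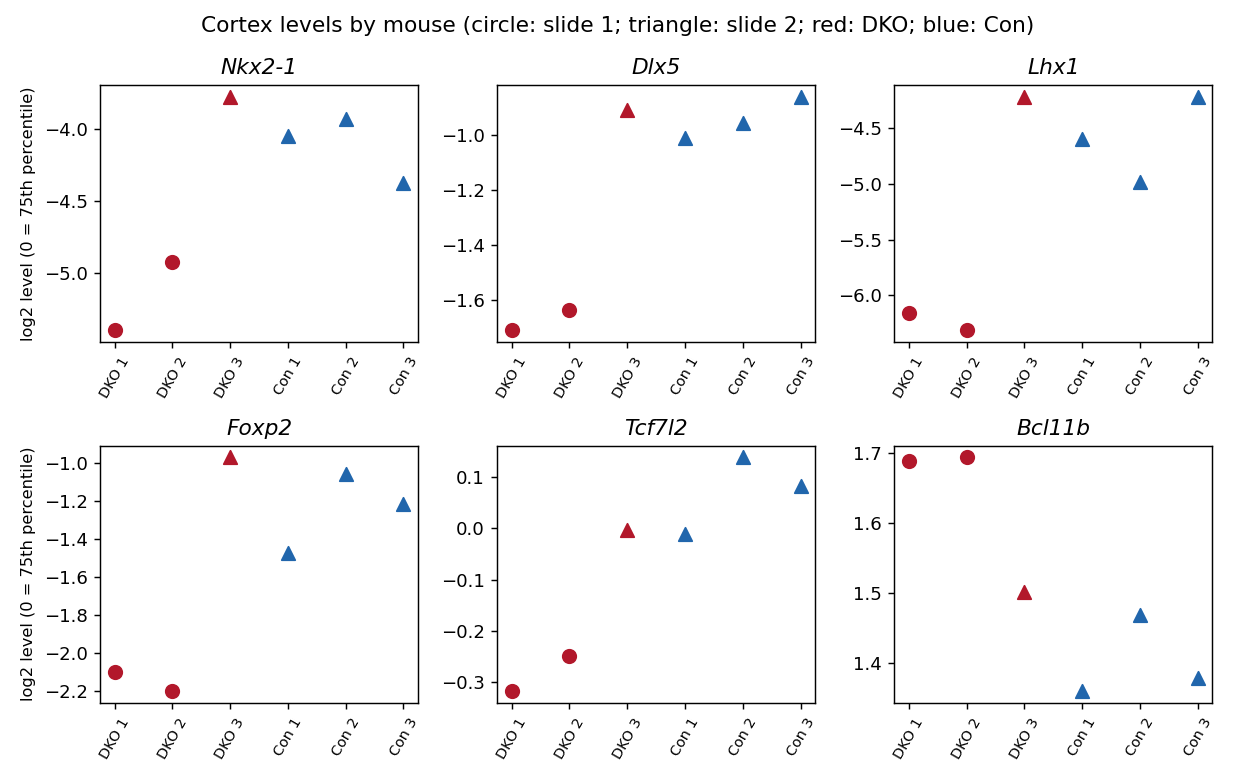
Cortex level (y axis, log2, 0 is the array's 75th percentile) of 6 factors by mouse (x axis): circles are arrays on slide 1, triangles arrays on slide 2, red DKO and blue Con. DKO mice 1 and 2 lie below the other 4 arrays for Nkx2-1, Dlx5, Lhx1, Foxp2 and Tcf7l2 and above them for Bcl11b, while DKO mouse 3 lies near or above the Con arrays.

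Whether the regional contrast differed between genotypes was tested as an interaction. No member of 34 tested passed (limma adjusted p of 0.562 or more), nor did any of all genes (0%). Before adjustment 4 members were under 0.05 (Tcf7l2, Neurod6, Hmx2 and Gbx2), against 8.36% of all genes. The difference between the contrasts, DKO minus Con, was 0.53 ± 0.15 for Tcf7l2, 0.98 ± 0.45 for Nkx2-1 and -1.36 ± 0.47 for Neurod6. Hmx2 was well above background on 0 and Gbx2 on 2 of the 6 cortex arrays, so no size is given for them. Without DKO mouse 3, 5 members passed as more positive in DKO (14.7%, against 5.76% of all genes): Nkx2-1, Dlx5, Lhx1, Tcf7l2 and Foxp2, among the 7 lower in DKO cortex in that fit. With slide as a block 0 passed, in a fit whose cortex part sets DKO mouse 3 alone against the Con mice, so nothing is concluded from it.

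Beyond the members, 42 other forebrain transcription factors were followed. In DKO mice 16 of 40 tested were higher in basal forebrain and 12 lower, and in Con mice 18 of 41 were higher and 11 lower, against the shares of all genes given above. The smallest p values in Con mice were those of Pbx3 (2.29 ± 0.08), a TALE homeodomain partner of Meis proteins, Satb1 (-1.72 ± 0.07), a chromatin organiser, and Tshz1 (1.22 ± 0.08), a zinc finger gene of striatum and olfactory bulb. None passed between genotypes by limma (0 of 40 in basal forebrain and 0 of 39 in cortex). Of all genes 0.0306% and 0.0116% did. In 7 and 6 of these factors the genotypes did not overlap, against 9.95% and 22.4% of all genes, so nothing is read from these counts. Chat itself averaged 0.05 ± 0.18 in DKO and 0.34 ± 0.65 in Con basal forebrain, and the groups overlapped.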

How the data were processed

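The processed intensity of each spot came from Agilent Feature Extraction, version 10.7.1.1, with background subtracted but no scaling between arrays, per the file headers. The deposited series table also holds the authors' normalized log2 values, used only as an alternative: the sources used here do not say how they were made, and 12 of its columns were not used. Repeat spots of 1 probe were averaged, 37 probes having only outlier-flagged spots on an array were left out and 56568 analysed. Log2 intensity minus the array's 75th percentile was compared. The brightest probe over the 12 arrays stood for a gene, which entered a comparison when the scanner called it well above background on each of the 3 arrays of a group compared. 68.9% to 75.0% of probes were well above background per array, no spot was saturated (0), and the number of arrays limits precision.

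R 4.3.3 with limma 3.58.1 (lmFit, eBayes with trend) was used, with p adjusted over all genes by Benjamini-Hochberg. Genotype was fitted within each region on 6 arrays, and region and interaction in 1 fit of 12 arrays. The 2 arrays of a mouse share its title code, so regions are paired by animal, and the pairing entered as an alternative. Deviations from the group mean correlated at -0.09 to 0.39 between the regions of a mouse. Between DKO and Con mice of equal number, within a region, they correlated at -0.49 to 0.45. The pairing therefore rests on the code alone. The fit was tested on simulated data. Alternatives changed background correction, scaling, filter, probe choice, slide and the mice used. The members and lists were chosen with earlier results of these data known. Named in full are, per territory, the member with the largest regional difference in Con mice, the one with the smallest genotype p and any running against its group. Other members described were chosen after their values were seen. The floxed gene itself is not reported here.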

Additional observations from a re-analysis of the deposited data

How the results depend on the processing

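No call of a member changed direction under any alternative run. Of 454 recalculations of called regional differences in Con mice 12 no longer passed, and of 482 in DKO mice 19, 12 of them for Otp. In cortex the genotype comparison called 0 to 4 members higher and 0 to 7 lower when single mice were left out, and 2 higher and 4 lower with DKO mouse 2 as the only DKO mouse. The interaction called 0 to 5 members higher when single mice were left out. The cause was not tested. Median scaling moved the median difference of all genes to -0.32 in DKO and -0.21 in Con mice, against -0.04 and -0.09 by the 75th percentile, and the share of calls that were higher to 22.7% and 27.3%, against 48.3% and 37.7%. Tested against 0, and so with that shift included, Zic2 (-0.62) and Cux1 (-0.41) then passed as lower in DKO mice and Dlx2 (0.17) no longer did. Differences relative to the shift were not tested. With the mouse as a replicate block the pairing changed no member's call (0). Between genotypes equal replicate numbers are different mice, and that block called 0 members. Normexp correction with an offset of 50 shrank the contrast of dim members, such as Hmx2 to 1.84 in DKO and 1.07 in Con mice, and the mean of all probes that of Nkx2-1 to 2.73 in DKO and 1.31 in Con mice, all still passing. Probes near background in cortex set only a lower limit on the contrast of Hmx2, Hmx3, Six6 and Gbx2 in at least 1 genotype. The fitted contrasts of Lhx5, well above background on only some cortex arrays, are not exact either.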
